A study of Mus musculus with 9 samples.

Results

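The genes described here encode alpha subunits of the Gq class of heterotrimeric G proteins (Gna11, Gnaq and Gna14), regulators of G protein signalling (Rgs2, Rgs4, Rgs5, Rgs10, Rgs16 and Rgs17) and the orphan receptor Gpr12. They were measured in Neuro2a cells, a mouse neuroblastoma line, on 3 arrays each after 48 h with siMyT1 (siRNA against Myt1, a neural zinc finger transcription factor), siLSD1 (siRNA against the lysine demethylase LSD1, encoded by Kdm1a) or siControl, the control siRNA. All groups were the same line and differed only in the siRNA as far as the labels say; the number and sequences of the siRNAs per target, and whether the replicates were separate cultures, were not stated, so the spread between arrays may be technical. Members were found by their symbols in the annotation of the array, which gave 32 of 45101 probe sets and 10 of 18193 genes. The 10 symbols were selected from earlier results of these same arrays, among them the differences of Gna11 and Gpr12 after siLSD1. Their differences between the groups are therefore a description, and no p-value is given for them.

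A G protein of the Gq class is switched on by a receptor, which makes its alpha subunit exchange GDP for GTP. The active subunit stimulates phospholipase C beta, and the products of that enzyme release calcium from internal stores and activate protein kinase C. RGS proteins end the signal by speeding the hydrolysis of GTP on the alpha subunit, and in neurons several of them are themselves regulated at the level of transcription. Gpr12, by contrast, is an orphan receptor with high constitutive activity toward Gs and cyclic AMP in transfected cells, and its closest relatives are Gpr3 and Gpr6.

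Both siRNAs lowered their own target. By the brightest probe set, Myt1 was at 13.5% of its siControl mean in siMyT1 (adjusted p = 1.25e-06, limma) and Kdm1a at 15.5% in siLSD1 (adjusted p = 3.01e-10). Their log2 differences were -2.60 and -2.64. Over 21 alternative ways of processing they ran from -2.92 to -1.26 for Myt1 and from -3.51 to -2.54 for Kdm1a. All 21 kept both calls. In siLSD1 Myt1 was at 142% of siControl without overlap, which was not called (limma adjusted p = 0.0643). In siMyT1 Kdm1a was at 107% and overlapped with siControl. Of 11 markers of neuroblastoma and sympathetic neurons 10 were measured, and their summed intensity was 184 to 196 deposited units in siMyT1, 252 to 280 in siLSD1 and 233 to 249 in siControl. Singly, Phox2a, Hand2, Chga and Chgb were called lower in siMyT1 than in siControl, and none was called higher. In siLSD1 Phox2a, Gata2, Th and Tubb3 were called higher than in siControl, and Hand2 was called lower. Fibroblast markers summed to 2.15 to 2.75, 1.53 to 1.66 and 1.47 to 1.98 units in siMyT1, siLSD1 and siControl, with Col1a1 and Lum below the pseudocount in each group. Endothelial markers summed to 1.56 to 2.53 units in siMyT1, 1.08 to 1.45 in siLSD1 and 0.796 to 1.66 in siControl. The fibroblast marker Dcn and the endothelial marker Tek were called higher in siMyT1 than in siControl, at 166% (adjusted p = 0.0292) and 277% (adjusted p = 0.0101), and also higher than in siLSD1. No other fibroblast or endothelial marker was called in any comparison. Macrophage and glial markers each summed to between 0.694 and 1.71 units on every array, and Ptprc, Aif1, S100b and Cdh5 were below the pseudocount in each group. Array medians lay between 0.302 and 0.424 units, with siMyT1 replicate 2 highest, and the 3′ over 5′ signal of the actin controls was 1.11 to 1.12 in siMyT1, 1.12 to 1.23 in siLSD1 and 1.15 to 1.19 in siControl. The part of any of these in the differences below was not tested.

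Promoter windows are shown because they belong to the members that were called against siControl. Each runs from 250 bases before to 50 bases after the gene's start, 5′ to 3′ on the strand of the gene, from RefSeq on GRCm38.p6. Capitals mark AAGTT, the core bound by Myt1 zinc fingers, and TGACG, the cyclic AMP response element core, on either strand; the Egr1 site GCGTGGGCG was searched as well.
Gna11, chr10:81545113-81545412, minus strand: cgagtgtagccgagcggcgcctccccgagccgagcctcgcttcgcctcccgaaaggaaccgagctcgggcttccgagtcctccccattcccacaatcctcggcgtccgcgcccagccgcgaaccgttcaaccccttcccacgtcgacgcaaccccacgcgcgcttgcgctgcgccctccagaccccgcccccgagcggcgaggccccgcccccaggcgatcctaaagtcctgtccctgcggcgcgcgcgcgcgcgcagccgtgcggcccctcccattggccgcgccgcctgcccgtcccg
Gpr12, chr5:146585190-146585489, minus strand: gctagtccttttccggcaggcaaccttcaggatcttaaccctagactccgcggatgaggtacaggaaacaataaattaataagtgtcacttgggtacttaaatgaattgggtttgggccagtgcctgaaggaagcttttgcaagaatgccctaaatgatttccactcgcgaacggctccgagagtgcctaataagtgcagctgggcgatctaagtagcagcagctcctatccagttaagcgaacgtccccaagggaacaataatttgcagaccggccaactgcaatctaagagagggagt
Rgs4, chr1:169747593-169747892, minus strand: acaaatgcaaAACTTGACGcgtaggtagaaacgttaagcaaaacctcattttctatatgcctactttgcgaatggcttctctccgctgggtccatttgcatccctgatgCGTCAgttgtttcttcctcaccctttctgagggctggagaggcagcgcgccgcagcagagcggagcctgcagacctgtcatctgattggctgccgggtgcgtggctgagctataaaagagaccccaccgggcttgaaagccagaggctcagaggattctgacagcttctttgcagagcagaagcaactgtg
Rgs17, chr10:5922351-5922650, minus strand: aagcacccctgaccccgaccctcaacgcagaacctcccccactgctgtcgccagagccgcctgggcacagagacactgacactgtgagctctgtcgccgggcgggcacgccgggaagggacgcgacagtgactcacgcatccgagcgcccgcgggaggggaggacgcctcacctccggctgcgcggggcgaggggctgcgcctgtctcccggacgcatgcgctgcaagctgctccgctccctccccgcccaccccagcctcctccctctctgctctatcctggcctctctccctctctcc
The windows of Gna11, Gpr12 and Rgs17 held none of these letters, and neither did the other listed start of Gpr12. That of Rgs4 held AAGTT 1 time, on the opposite strand and 240 bases before the start, overlapping by 1 base with a TGACG that began 236 bases before the start, and a second TGACG on the opposite strand 141 bases before the start. Among all 10 members, whose 11 windows were matched by symbol, Rgs5 held AAGTT 1 time and Rgs2 held TGACG 2 times. Of 32851 windows of the same length, 39.3% held AAGTT, 20.8% held TGACG and 0.612% held the Egr1 site, which no member window held. The member windows had a median G+C content of 66%, with 75% for both Gna11 and Gnaq and 53% for Rgs4, against 52.7% for all windows.

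Gna11 and Gnaq encode closely related alpha subunits that share receptors and effectors, yet their arrays were ordered differently after the siRNAs. Gna11, by its brighter probe set, measured 10.1, 9.31 and 10.6 units in siMyT1, 3.71, 3.94 and 3.67 in siLSD1, and 10.8, 11.5 and 10.5 in siControl. The siLSD1 arrays lay far below all others, while siMyT1 and siControl overlapped. In RNA from whole cultures, fewer cells with a transcript and less of it per cell cannot be told apart. The siLSD1 mean was 34.6% of siControl (log2 difference -1.48, SE 0.07), and the siMyT1 mean was 91.6% (-0.12, SE 0.07).

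The other Gna11 probe set gave the same order. It measured 8.05, 8.47 and 8.68 units in siMyT1, 2.86, 2.80 and 2.71 in siLSD1 and 9.90, 9.98 and 9.94 in siControl. No groups overlapped on this probe set, with siLSD1 at 28.1% of siControl and siMyT1 at 84.5%. Between the knockdowns, Gna11 was higher in siMyT1 by 1.36 (SE 0.07) on the log2 scale by the brighter probe set and by 1.52 (SE 0.06) by the other.

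Gnaq, by the brightest of its 7 probe sets, measured 5.95, 6.78 and 6.89 units in siMyT1, 9.31, 8.77 and 8.18 in siLSD1, and 7.44, 8.0 and 7.27 in siControl. All 3 groups were separate, with siLSD1 highest and siMyT1 lowest. The log2 difference from siControl was -0.21 (SE 0.08) in siMyT1 and 0.20 (SE 0.08) in siLSD1, and neither was called. Between the knockdowns the difference was -0.41 (SE 0.08), and this was called.

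The remaining Gnaq probe sets varied around that order. On each of the 5 brightest the siMyT1 arrays were all below the siLSD1 arrays, with log2 differences from -0.41 to -0.55. The sixth gave -0.29 (SE 0.16) and the dimmest, at 0.323 units in siMyT1 and 0.268 in siLSD1, gave 0.16 (SE 0.18), both with overlapping arrays. On its own, the second probe set was called in siLSD1 against siControl (0.40, SE 0.09). For siLSD1 against siControl all 7 differences were above 0, from 0.06 to 0.49, and for siMyT1 against siControl they ran from -0.28 to 0.22. Gna14, a Gq-class subunit encoded next to Gnaq on chromosome 19, was below 0.4 units on every array by each of its 3 probe sets. Its groups overlapped in both comparisons with siControl, and its brightest probe set had means of 0.212 ± 0.16 in siMyT1, 0.165 ± 0.047 in siLSD1 and 0.206 ± 0.055 in siControl (SD, n = 3 each).

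**Figure D1:**
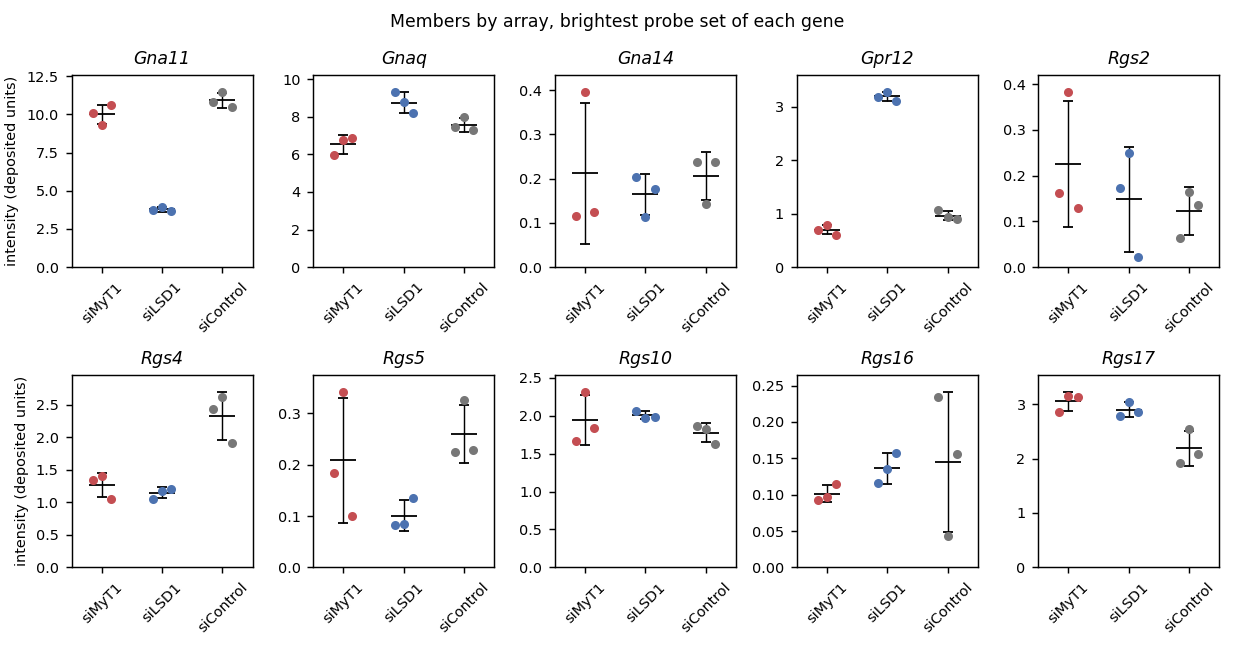
Intensity in deposited units (vertical axes, linear, from 0) of the brightest probe set of each member on every array, with the group mean and SD in black. Gna11 sits at 3.67 to 3.94 units in siLSD1 and at 9.31 units or more elsewhere, Gpr12 at 3.11 to 3.27 units in siLSD1 and at 1.06 or less elsewhere, and Rgs4 is below siControl in both knockdowns.

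Gpr12 showed the largest difference of any member between the knockdowns. It measured 0.700, 0.779 and 0.608 units in siMyT1, 3.19, 3.27 and 3.11 in siLSD1, and 1.06, 0.936 and 0.892 in siControl. The 3 groups did not overlap, and siLSD1 stood well above both others. The siLSD1 mean was 332% of siControl (log2 difference 1.55, SE 0.14), and the siMyT1 mean was 72.3% of siControl (-0.38, SE 0.14), which was not called. Against siLSD1, siMyT1 was at 21.8% (-1.93, SE 0.14).

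The dimmer Gpr12 probe sets kept siLSD1 apart. The second measured 0.120, 0.202 and 0.296 units in siMyT1, 1.52, 1.48 and 1.24 in siLSD1, and 0.267, 0.441 and 0.221 in siControl. The third measured 0.0891, 0.0254 and 0.0915 units in siMyT1, 0.409, 0.345 and 0.425 in siLSD1, and 0.0634, 0.0739 and 0.0866 in siControl. On both, every siLSD1 array was above all other arrays, and siMyT1 overlapped with siControl. Their log2 differences for siLSD1 against siControl were 1.69 (SE 0.23) and 1.12 (SE 0.16), the lower value belonging to a probe set with a mean below the pseudocount of 0.196 units, where the scale understates change.

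Rgs4, a regulator that acts on Gq and Gi alpha subunits and is abundant in brain neurons, was lower in both knockdowns. Its brightest probe set measured 1.35, 1.40 and 1.06 units in siMyT1, 1.05, 1.18 and 1.21 in siLSD1, and 2.44, 2.62 and 1.91 in siControl. Both knockdowns lay below every siControl array and overlapped with each other. The means were 54.6% of siControl in siMyT1 (log2 difference -0.78, SE 0.15) and 49.4% in siLSD1 (-0.90, SE 0.15), and the same 3 siControl arrays stand in both values.

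All 3 probe sets of Rgs4 had this order. Without overlap with siControl, the second gave -0.64 (SE 0.15) in siMyT1 and -0.88 (SE 0.15) in siLSD1, and the dimmest gave -0.52 and -0.57 (SE 0.15 each), which were not called on their own. Between the knockdowns the log2 difference was 0.12 (SE 0.15) on the brightest probe set, which was not called, and 0.05 to 0.24 over the 3 probe sets.

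Rgs17, a member of the RZ subfamily that acts mainly on Gi-class and Gz subunits, was higher in both knockdowns by its brighter probe set. It measured 2.86, 3.16 and 3.13 units in siMyT1, 2.79, 3.05 and 2.85 in siLSD1, and 1.93, 2.54 and 2.09 in siControl. Neither knockdown overlapped with siControl, the same 3 arrays in both cases, and the knockdowns overlapped with each other. The log2 difference was 0.45 (SE 0.11) in siMyT1 and 0.38 (SE 0.11) in siLSD1.

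The second Rgs17 probe set did not show this. It measured 0.426, 0.406 and 0.468 units in siMyT1, 0.457, 0.392 and 0.460 in siLSD1, and 0.438, 0.432 and 0.513 in siControl, and all groups overlapped. When both probe sets were averaged, the log2 difference was 0.20 in siMyT1 and 0.16 in siLSD1, and both calls were lost. The siMyT1 call also needed siControl replicates 1 and 3 and siMyT1 replicates 2 and 3, and the siLSD1 call needed these and each siLSD1 replicate. Both were lost in a fit of the compared groups alone. The siLSD1 call was also lost with the larger pseudocount, every probe set fitted singly, no variance trend or the replicate block. Of 21 alternatives, 15 kept the siMyT1 call and 8 the siLSD1 call. The differences lay between 0.20 and 0.56 in siMyT1 and between 0.16 and 0.49 in siLSD1 over all alternatives.

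The other regulators were not called in any comparison. Rgs10, a small RGS protein selective for Gi-class subunits, measured 1.67, 2.31 and 1.84 units in siMyT1, 2.06, 1.97 and 1.98 in siLSD1, and 1.86, 1.82 and 1.63 in siControl. Its siLSD1 arrays were all above siControl, by 0.16 (SE 0.13) on the log2 scale, and its siMyT1 arrays spanned both. Rgs2, a regulator selective for Gq subunits, Rgs5 and Rgs16 were dim: every one of their probe sets, like those of Gna14, had a mean below the pseudocount.

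Within these dim genes the arrays scattered. The brightest probe set of Rgs5 measured 0.183, 0.341 and 0.101 units in siMyT1, 0.0833, 0.0838 and 0.135 in siLSD1, and 0.225, 0.326 and 0.229 in siControl. Its siLSD1 arrays lay below all siControl arrays (log2 difference -0.62, SE 0.21, not called), while siMyT1 overlapped with both. The call for siLSD1 appeared without siMyT1 replicate 2 and in a fit of siLSD1 and siControl alone. Rgs2 measured 0.162, 0.383 and 0.129 units in siMyT1, 0.174, 0.249 and 0.0219 in siLSD1, and 0.0634, 0.165 and 0.137 in siControl, with all groups overlapping. For Rgs2, Rgs5 and Gna14 the highest siMyT1 value came from replicate 2, the array with the highest median. Rgs16 ranged from 0.0437 to 0.234 units over all arrays by its brightest probe set and overlapped with siControl in both knockdowns.

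**Figure D2:**
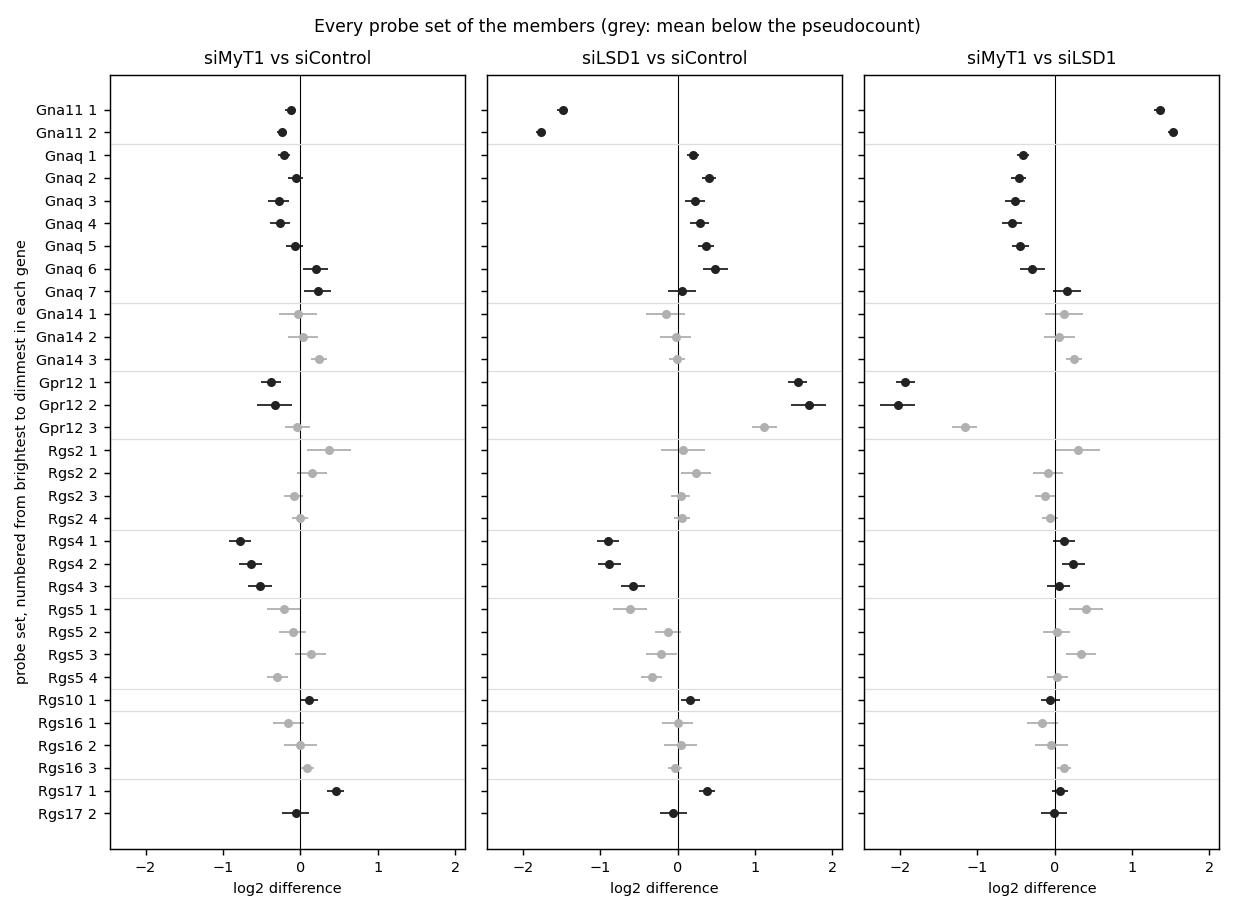
Log2 difference (horizontal axes) with its standard error for each of the 32 member probe sets (rows, brightest first within a gene) in siMyT1 against siControl, siLSD1 against siControl, and siMyT1 against siLSD1. Grey points are the 15 probe sets with a mean below the pseudocount; the probe sets of Gna11, Gpr12 and Rgs4 have the same sign within each gene in siLSD1 against siControl, and those of Rgs17 do not.

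Counted by gene and its brightest probe set, 1 of 10 members (Rgs17) was called higher in siMyT1 than in siControl and 1 (Rgs4) lower, where 5.12% of all 18193 genes were called higher and 2.29% lower. A call is a limma p-value under 0.05 after adjustment over all genes. In siLSD1 against siControl 2 members (Gpr12 and Rgs17) were higher and 2 (Gna11 and Rgs4) lower, with 3.97% and 4.93% of all genes. In siMyT1 against siLSD1 1 member (Gna11) was higher and 2 (Gnaq and Gpr12) lower, with 13.2% and 5.58% of all genes. The member counts follow from how the genes were chosen, and nothing is read from them. The median log2 difference of the members was -0.14, 0.03 and 0.09 in these comparisons in the order given, and that of all genes was 0.05, -0.03 and 0.09.

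The calls of Gna11 and Gpr12 in siLSD1 and between the knockdowns, of Rgs4 in both knockdowns and of Gnaq between the knockdowns were kept under all 21 alternatives. These alternatives refit the arrays from which the members were chosen. They show how far a call depends on processing and are no further evidence for it. In siLSD1 against siControl, Gna11 ranged from -1.62 to -1.39, Gpr12 from 1.27 to 1.73 and Rgs4 from -1.02 to -0.73. For Gnaq the scaling between arrays mattered: its siLSD1 value of 0.20 was called after quantile normalization (0.23) and median centring (0.29), and its siMyT1 value of -0.21 after quantile normalization (-0.24). Gpr12 in siMyT1 was called in 3 alternatives, with values from -0.47 to -0.25 over all 21. These were quantile normalization, the filter on dim genes and array weights. The filter kept genes with at least 1 unit on at least 3 arrays. Gpr12 passed it only through its siLSD1 arrays, since siControl replicate 1 alone among the others reached 1 unit. The call under that filter therefore depends on the group for which Gpr12 was chosen. Median centring moved the direct comparison of all genes by -0.13, and Gnaq there stayed between -0.54 and -0.35.

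**Figure D3:**
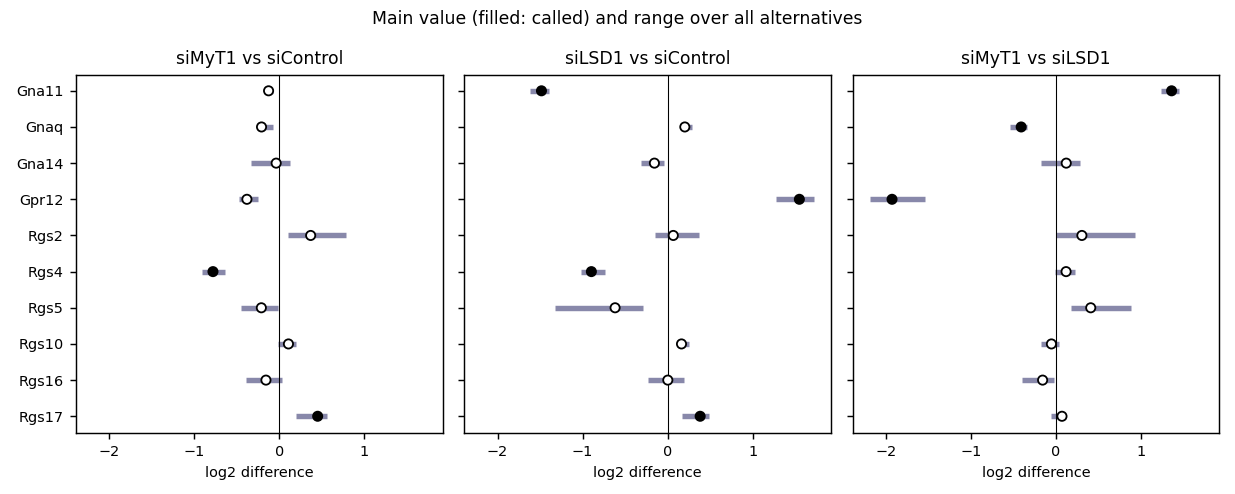
Log2 difference of each member (rows) in the 3 comparisons, with the value as reported (circle, filled where called) and its range over all alternatives (bar). The bars of Gna11, Gpr12 and Rgs4 in siLSD1 against siControl stay clear of 0, and the bar of Rgs16 there crosses it.

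Genes with the pattern most like Gna11 and Gpr12 were taken by Pearson's r of the log2 values over all 9 arrays, among 9313 other genes with a mean of at least 1 unit. The arrays fall into 3 groups, so r mostly reflects the group means. For Gna11 they were Letmd1 (r = 0.993), Slc35f5 (0.990), the siLSD1 target Kdm1a itself (0.989), Shox2 (0.987) and Dnajc27 (0.987). Letmd1 averaged 18.3 units in siMyT1, 9.37 in siLSD1 and 20.6 in siControl. For Gpr12 they were Slc18a2 (r = 0.995), Arhgap26 (0.994), Asap2 (0.990), Tesc (0.987) and Ampd3 (0.986). Arhgap26 averaged 1.07 units in siMyT1, 3.10 in siLSD1 and 1.29 in siControl.

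The surrounding pathway was described with 10 lists of 184 genes that hold no member, of which 166 were measured. In siMyT1 against siControl 8 of the 166 were higher (4.82%) and 5 lower (3.01%), close to the shares of all genes given above. In siLSD1 against siControl 15 were higher (9.04%) and 5 lower (3.01%), beside 3.97% and 4.93% of all genes. Between the knockdowns 19 were higher in siMyT1 (11.4%) and 20 lower (12%), beside 13.2% and 5.58% of all genes. The lists were chosen with earlier results of these data known, so these shares are a description. The median log2 difference of these genes was 0.03, -0.02 and 0.02 in the same order.

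Among 12 other alpha subunits, 0 were called in siMyT1 against siControl. In siLSD1 Gnai2, an inhibitory alpha subunit, was higher (log2 difference 0.29, SE 0.08, adjusted p = 0.0395), a call lost without siControl replicate 1 or 3 or any siMyT1 or siLSD1 replicate (adjusted p up to 0.164). Gna15, the Gq-class subunit encoded next to Gna11, measured 0.605 ± 0.067 units in siMyT1, 0.381 ± 0.026 in siLSD1 and 0.470 ± 0.021 in siControl and was not called. Between the knockdowns Gnaz and Gnao1, alpha subunits of the Gi class enriched in neurons, were lower in siMyT1 by -0.47 (adjusted p = 0.00231) and -0.37 (adjusted p = 0.0237), and Gnat2, a cone transducin, was higher by 0.38 (adjusted p = 0.0201). The Gnao1 call was lost without siMyT1 replicate 1 or 3 or siLSD1 replicate 1 or 3 and the Gnat2 call without siMyT1 or siLSD1 replicate 2 or 3 (adjusted p up to 0.0872 and 0.0938).

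Of 16 beta and gamma subunits 2 were lower in siMyT1 than in siControl. Gng4, a gamma subunit of brain, measured 3.71, 3.93 and 3.99 units in siMyT1, 5.02, 4.61 and 5.23 in siLSD1, and 6.94, 7.81 and 6.79 in siControl. The groups were separate, with siControl highest and siMyT1 lowest. Gng4 thus fell in siMyT1 (-0.86, SE 0.08, adjusted p = 5.11e-05) and in siLSD1 (-0.52, SE 0.08, adjusted p = 0.00109) against the same control arrays, the siLSD1 call being lost when less specific probe sets were left out (adjusted p = 0.0699). Gnb3 was the other (-0.64, SE 0.16, adjusted p = 0.0278), a call that needed each siControl replicate and replicates 1 and 3 of siMyT1 (up to adjusted p = 0.0965 with 1 array left out). In siLSD1 Gng3, a neuronal gamma subunit, rose by 0.50 (SE 0.10, adjusted p = 0.00503), and Gng10 was lower (-0.35, adjusted p = 0.0159), a call lost without siControl replicate 2 or siLSD1 replicate 2 or 3 (adjusted p up to 0.0628).

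Between the knockdowns 1 of the 16 beta and gamma subunits was higher in siMyT1 and 5 were lower, beside 13.2% and 5.58% of all genes. Gng10 was the higher one (0.42, adjusted p = 0.00255), though not after median centring. Gng3 was lower in siMyT1 (-0.51, adjusted p = 0.00258), as were Gnb1 (-0.28, adjusted p = 0.00935) and Gng4 (-0.34, adjusted p = 0.0101). The Gnb1 call was lost without siMyT1 replicate 2 (adjusted p = 0.0506) and its difference was 0.05 with all its probe sets averaged, and the Gng4 call was lost without siLSD1 replicate 3 (adjusted p = 0.0569). Gnb3 (-0.61, limma adjusted p = 0.0163) and Gnb4 (-0.23, limma adjusted p = 0.0331) were also lower. The Gnb3 call was lost without replicate 3 of either knockdown. That of Gnb4 was kept in 11 of 21 alternatives and lost with all probe sets averaged.

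Of 13 other RGS genes measured, 1 was higher and 0 lower in each comparison, and each of these calls rested on single arrays. Rgs12 was higher in siMyT1 than in siControl by 0.34 (SE 0.09, adjusted p = 0.0435), a call lost without siControl replicate 1 or 3, any siMyT1 replicate, or siLSD1 replicate 1 or 3 (adjusted p up to 0.160). Rgs14 was higher in siLSD1 than in siControl by 0.80 (SE 0.23, adjusted p = 0.0463), a call lost without siControl replicate 2 or 3, siMyT1 replicate 1 or 3, or any siLSD1 replicate (adjusted p up to 0.155). Rgs19, like Rgs17 a member of the RZ subfamily, was higher in siMyT1 than in siLSD1 by 0.27 (SE 0.09, adjusted p = 0.0459), a call lost without siControl replicate 1 or replicate 2 or 3 of either knockdown (adjusted p up to 0.176).

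Downstream of Gq, 15 effector genes were measured. Plcb4, a phospholipase C beta of neurons, measured 23.8, 23.9 and 24.3 units in siMyT1, 22.1, 19.1 and 18.8 in siLSD1, and 28.0, 26.1 and 26 in siControl. It was the 1 effector that fell in siLSD1 (-0.42, SE 0.07, adjusted p = 0.00154), and 0 rose there. In siMyT1 2 effectors rose and 0 fell. Arhgef25, an exchange factor activated by Gq, measured 8.08, 8.79 and 8.55 units in siMyT1, 6.05, 5.51 and 5.95 in siLSD1, and 5.64, 6.55 and 5.60 in siControl, so that siMyT1 stood above both other groups. Its rise over siControl was 0.50 (SE 0.08, adjusted p = 0.00175), and that of Prkcd, protein kinase C delta, was 0.46 (SE 0.09, adjusted p = 0.00701). Both calls were lost with all probe sets averaged, and that of Arhgef25 also when less specific probe sets were left out.

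Between the knockdowns 5 of the 15 effectors were higher in siMyT1 and 0 lower, beside 13.2% and 5.58% of all genes. Arhgef25 differed by 0.52 (adjusted p = 0.000430), Prkcd by 0.35 (adjusted p = 0.0129), Plcb4 by 0.27 (adjusted p = 0.0149) and Itpr3, an IP3 receptor, by 0.73 (adjusted p = 0.0240). The Prkcd call was lost without siMyT1 replicate 2 or 3, the Plcb4 call without siMyT1 replicate 3 or siLSD1 replicate 2 or 3, and the Itpr3 call without siMyT1 replicate 2 or 3 or any siLSD1 replicate (adjusted p up to 0.0608, 0.0812 and 0.0857). The fifth was Prkcb, a protein kinase C named here after its values were seen (0.54, adjusted p = 0.0469), whose call was kept in 5 of 20 alternatives. Prkcb averaged 0.204 units in siMyT1, close to the pseudocount, and 0.0834 in siLSD1, below it. After median centring the calls of Prkcb, Prkcd and Plcb4 were lost, and those of Arhgef25 and Itpr3 were kept.

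Diacylglycerol kinases remove the second messenger that Gq signalling makes, and 8 of them were measured. Dgkz measured 16.1, 17.1 and 17.0 units in siMyT1, 29.8, 28.4 and 29.5 in siLSD1, and 18.8, 20.9 and 19.2 in siControl, with siLSD1 far above the others. It rose in siLSD1 by 0.57 (SE 0.06, adjusted p = 4.96e-05), and Dgki, a neuronal isoform, rose there by 0.69 (SE 0.14, adjusted p = 0.00589). In siMyT1 Dgkz was lower by -0.22 (SE 0.06, adjusted p = 0.0380), a call lost without any siControl or siMyT1 replicate or siLSD1 replicate 3, and Dgka was higher by 0.41 (SE 0.09, adjusted p = 0.0153), a call that needed siControl replicates 1 and 3 and siMyT1 replicate 3 (adjusted p up to 0.118 and 0.0675 with 1 array left out). Between the knockdowns Dgkz and Dgki were lower in siMyT1 by -0.80 (adjusted p = 2.88e-06) and -0.81 (adjusted p = 0.00113). Dgkq was higher there by 0.66 (adjusted p = 0.0345), a call lost without any siMyT1 replicate or siLSD1 replicate 2 or 3 (adjusted p up to 0.134).

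Of 42 receptors that couple to Gq, 4 rose and 0 fell in siLSD1, beside 3.97% and 4.93% of all genes. Most of the 42 had a siControl mean below the pseudocount, such as Cckar (0.0331 units) and Trhr (0.0448 units). There the scale leaves little room for a fall, so nothing is read from the 0. Agtr1a, the angiotensin II type 1a receptor, measured 1.75, 2.42 and 1.87 units in siMyT1, 6.17, 4.91 and 5.11 in siLSD1, and 1.65, 1.79 and 1.69 in siControl. As with Gpr12, the siLSD1 arrays stood alone, and the rise was 1.55 (SE 0.13, adjusted p = 8.45e-06). F2r, the thrombin receptor PAR1, rose by 0.42 (SE 0.06, adjusted p = 0.000639), Prokr1, a prokineticin receptor, by 0.83 (SE 0.18, adjusted p = 0.00948) and Bdkrb2, the bradykinin B2 receptor, by 0.75 (SE 0.16, adjusted p = 0.00972). The Bdkrb2 call was lost without siLSD1 replicate 3 (adjusted p = 0.0524).

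In siMyT1 2 of the 42 receptors were higher than in siControl and 0 lower. They were Kiss1r, the kisspeptin receptor (0.67, SE 0.17, adjusted p = 0.0335), and Prokr1 (0.68, SE 0.18, adjusted p = 0.0353). The Kiss1r call was lost without siControl replicate 3, siMyT1 replicate 2 or 3 or siLSD1 replicate 3, and the Prokr1 call without any siControl replicate, siMyT1 replicate 2 or 3 or siLSD1 replicate 1 or 3 (adjusted p up to 0.126 and 0.150). Between the knockdowns 3 were higher and 3 lower in siMyT1. Among the higher was Htr2b, named here after its values were seen, at 0.0938 units in siMyT1 and 0.00783 in siLSD1. Both means lay below the pseudocount, and its call was kept in 4 of 20 alternatives. Agtr1a and F2r were lower by -1.35 (adjusted p = 1.47e-05) and -0.46 (adjusted p = 0.000181). Kiss1r was higher by 0.996 (SE 0.17, adjusted p = 0.00142), and P2ry6, a nucleotide receptor, was higher by 0.74 (adjusted p = 0.0224) at 0.209 ± 0.13 units in siMyT1 against 0.0387 ± 0.00685 in siLSD1, a call lost without siMyT1 replicate 3 or siLSD1 replicate 2 or 3 (adjusted p up to 0.0823).

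Gpr12 has 16 measured relatives among the lysolipid, cannabinoid and melanocortin receptors and the receptors Gpr3 and Gpr6. Of these 1 was higher than siControl in each knockdown and 0 were lower. S1pr2, a sphingosine 1-phosphate receptor, measured 2.95, 2.42 and 3.21 units in siMyT1, 2.11, 2.15 and 2.15 in siLSD1, and 1.67, 1.90 and 1.84 in siControl, and its rise in siMyT1 was 0.61 (SE 0.12, adjusted p = 0.00802). Cnr1, the cannabinoid receptor of neurons, was higher in siLSD1 by 0.35 (SE 0.08, adjusted p = 0.0143), a call lost without siControl replicate 1 or 3 or siLSD1 replicate 3 (adjusted p up to 0.0801). Between the knockdowns Cnr1 was lower in siMyT1 by -0.61 (SE 0.08, adjusted p = 0.000173), and S1pr2 was higher by 0.38 (adjusted p = 0.0377), a call lost without siMyT1 replicate 1 or 3 or any siLSD1 replicate (adjusted p up to 0.167). Gpr3 and Gpr6 were not called in any comparison.

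Of 20 genes of the cyclic AMP pathway 2 fell and 2 were higher in siLSD1. Pde4d, a phosphodiesterase that breaks cyclic AMP down, measured 5.73, 5.77 and 5.94 units in siMyT1, 3.74, 3.73 and 3.92 in siLSD1, and 7.23, 8.21 and 7.09 in siControl. The groups were separate, with siLSD1 lowest, and the fall was -0.95 in siLSD1 (SE 0.07, adjusted p = 5.65e-06) and -0.36 in siMyT1 (SE 0.07, adjusted p = 0.0119), the siMyT1 value being -0.12 and not called with all probe sets averaged. Prkar2a, a regulatory subunit of protein kinase A, fell in siLSD1 by -0.85 (SE 0.07, adjusted p = 6.81e-06), and Pde4b rose by 0.62 (SE 0.09, adjusted p = 0.000937). Prkar1b, a neuronal regulatory subunit, was higher in siLSD1 by 0.24 (adjusted p = 0.0307) and lower in siMyT1 by -0.24 (adjusted p = 0.0391).

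Both Prkar1b calls rested on single arrays. The first was lost without any siControl replicate or siLSD1 replicate 1 or 3, and the second without any siControl replicate, siMyT1 replicate 1 or 2 or siLSD1 replicate 3 (adjusted p up to 0.111 and 0.134). In siMyT1 Adcy4, an adenylyl cyclase, was higher by 0.83 (SE 0.18, adjusted p = 0.0150), a call that needed both siControl replicate 1 and siMyT1 replicate 3 (adjusted p up to 0.0752 with 1 array left out), so that 1 member of this list was higher and 2 lower there. Between the knockdowns 4 were higher and 4 lower in siMyT1, led by Prkar2a (0.83, adjusted p = 5.09e-06), Pde4d (0.59, adjusted p = 0.000137), Prkar1b (-0.48, adjusted p = 0.000199) and Pde4b (-0.40, adjusted p = 0.00916).

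Receptor kinases, arrestins and other alpha subunit regulators had 14 measured genes, of which 0 were called in siMyT1 against siControl. In siLSD1 2 were higher and 0 lower. Gprin1, a G protein-regulated inducer of neurite outgrowth, measured 5.65, 6.11 and 5.45 units in siMyT1, 10.002, 9.66 and 11.9 in siLSD1, and 6.69, 7.22 and 5.97 in siControl, and rose in siLSD1 by 0.65 (SE 0.09, adjusted p = 0.000556). Arrb1, beta-arrestin 1, was higher by 0.33 (SE 0.08, adjusted p = 0.0229), a call lost without siControl replicate 1 or 3 or any siLSD1 replicate (adjusted p up to 0.109) and with the replicate number as a block. Between the knockdowns Gprin1 and Arrb1 were lower in siMyT1 by -0.85 (adjusted p = 4.13e-05) and -0.56 (adjusted p = 0.000428), and Gpsm2 and Grk6 higher by 0.55 (adjusted p = 0.00521) and 0.42 (adjusted p = 0.0121). The Grk6 call was lost without siMyT1 replicate 2 or siLSD1 replicate 3 (adjusted p up to 0.0622).

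Of 10 calcineurin and NFAT genes, which respond to calcium, 0 were called in siMyT1 against siControl. Ppp3cb, a catalytic subunit of calcineurin, was higher in siLSD1 by 0.26 (SE 0.06, adjusted p = 0.0125), a call lost without siControl replicate 1 or 3 or siLSD1 replicate 3 (adjusted p up to 0.0669). It was lower in siMyT1 than in siLSD1 by -0.43 (SE 0.06, adjusted p = 0.000241). With all probe sets averaged both calls were lost.

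Averaging all probe sets of a gene ended further calls named above. In siMyT1 against siControl these were Rgs12, Dgkz, Prokr1 and Prkar1b. In siLSD1 against siControl they were Gnai2, Rgs14, Prokr1, Bdkrb2, Cnr1, Pde4b, Prkar1b and Gprin1. Between the knockdowns they were Gnao1, Gng4, Rgs19, Prkcb, Prkcd, Plcb4, Arhgef25, Htr2b, Pde4b and Pde4d. Median centring ended the calls of Rgs12, Dgkz and Prkar1b in siMyT1, of Gng10 in siLSD1, and of Gnat2, Rgs19, Htr2b, P2ry6 and S1pr2 between the knockdowns. Leaving out less specific probe sets ended the calls of Prkar1b in siMyT1 and of Gng4 and Arhgef25 between the knockdowns, where Gng4 ranged from -0.47 to -0.09 over all alternatives.

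**Figure D4:**
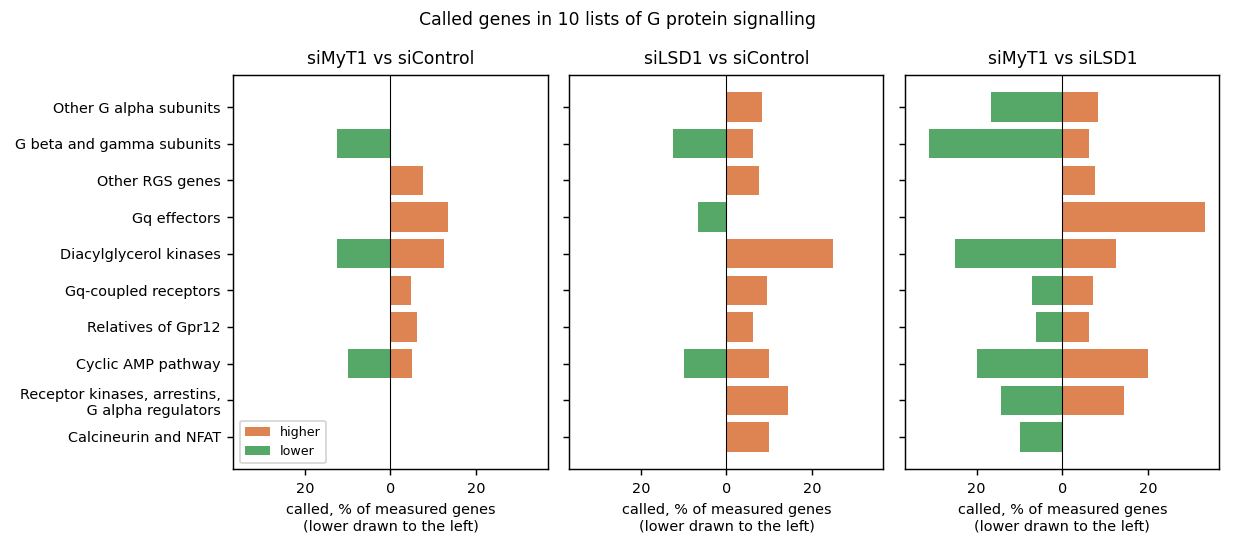
Called genes as a percentage of the measured genes of each list (rows), with higher genes drawn to the right and lower genes to the left, in the 3 comparisons. In siLSD1 against siControl 4 of 42 Gq-coupled receptors are higher and 0 lower, beside 3.97% and 4.93% of all genes. Most of these receptors have a siControl mean below the pseudocount, where the scale leaves little room for a fall. In siMyT1 against siLSD1 5 of 15 Gq effectors are higher and 0 lower, beside 13.2% and 5.58% of all genes. Of these effector calls, those of Prkcb, Prkcd and Plcb4 were lost after median centring.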

How the data were processed

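The series' values are linear array intensities as deposited, 1 per probe set and array for 9 arrays of total RNA labelled with biotin, per the labels; how the authors summarised and scaled them is not given in the sources used here. Fold changes are differences of log2(value + 0.196 deposited units), a pseudocount of 32 after 1 constant (163.6) had brought the mean, trimmed by 2% at each end, to 500; no further normalization was applied, and the scale understates the change of dim genes. Each gene was taken by its brightest probe set among 34945 with 1 symbol, and member probe sets also singly. Limma 3.58.1 in R 4.3.3 fitted group means over all 9 arrays with an intensity trend (6 residual and 6.84 prior degrees of freedom), two-sided, with Benjamini-Hochberg adjustment over 18193 genes and a threshold of 0.05; an exact permutation test of 3 arrays against 3 could not go below p = 0.1. The fit was tested on simulated arrays.

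The members, lists and tests were chosen with earlier results of these data known. Named were every member, up to 4 called genes per list and comparison with the smallest adjusted p, both siRNA targets and the 5 genes most like Gna11 and Gpr12. Markers of cell types, neighbouring genes, Prkcb, Htr2b, and Gnb3 and Gnb4 between the knockdowns were named outside this rule. Listed genes without a probe set of 1 symbol were not analysed here. Symbols were checked by Entrez identifier against RefSeq (GRCm38.p6), which matched 34741 probe sets, and promoter windows were matched to members by symbol. Alternatives covered scaling, pseudocount, dim genes, choice of probe sets, variance model, replicate block and each array left out in turn. The number of arrays limits the precision.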

Additional observations from a re-analysis of the deposited data

How the results depend on the processing

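Of the 21 alternatives, 9 leave out 1 array each. The number of genes called in siMyT1 against siControl (1348 as reported) was 2463 after quantile normalization, 862 with all probe sets averaged, 765 without a variance trend and 650 to 1450 with 1 array left out. In siLSD1 against siControl (1619) it was 2805 after quantile normalization, 1079 with all probe sets averaged, 2966 with array weights and 965 to 1723 with 1 array left out, and in siMyT1 against siLSD1 (3423) it was 2331 to 3705 with 1 array left out. Higher genes made up 69.1%, 44.6% and 70.3% of the calls in these comparisons as reported, 55.6%, 50.7% and 55.7% after quantile normalization and 56.3%, 66.5% and 41.7% after median centring. Members called in siMyT1 against siControl (2) were 4 after quantile normalization, 1 with all probe sets averaged, 1 in a fit of the compared groups alone and 1 to 2 with 1 array left out; they were 3 to 4 in siLSD1 against siControl (4) and 3 in siMyT1 against siLSD1 (3) with 1 array left out. Gnb1 in siMyT1 against siLSD1 changed sign, to 0.0492, with all probe sets averaged. Of list calls, 2 of 13, 8 of 20 and 13 of 39 were kept in every alternative in the 3 comparisons, and 5, 12 and 18 with each array left out in turn. The causes were not tested.

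Deviations of single genes from their group means did not correlate between same-numbered replicates (r from -0.03 to 0.04 over 9 pairs). Such an r leaves out any shift of a whole array. It therefore cannot tell whether same-numbered arrays were handled together. With the replicate block 935, 1259 and 2927 genes and 2, 3 and 3 members were called in the 3 comparisons, Rgs17 in siLSD1 being the member not called. The filter on dim genes left 9505 genes and removed Gna14, Rgs2, Rgs5 and Rgs16. Signal limits those 4 genes: without detection calls, a level under the pseudocount cannot be told from background.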

Other observations

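Genes next to a member in the RefSeq table were looked up after the members' values were seen. Usp12, a ubiquitin protease gene next to Gpr12 on chromosome 5, was higher in siLSD1 than in siControl, at 9.92 ± 0.50 against 7.0 ± 0.044 units (SD, n = 3 each), with a log2 difference of 0.49 (SE 0.06, limma adjusted p = 0.000236). Tle5, a Groucho-family gene next to Gna11 on chromosome 10, measured 5.43 ± 0.27 units in siLSD1 and 7.03 ± 0.51 in siControl (-0.36, SE 0.09, adjusted p = 0.0191), a call lost without siControl replicate 1 or 2 or siLSD1 replicate 3 (adjusted p up to 0.0950). Gna15, on the other side of Gna11, was not called in any comparison. Cep78 and Vps13a, which flank Gnaq and Gna14 on chromosome 19, were not called in any comparison, with log2 differences from siControl of -0.09 and -0.06 in siMyT1 and -0.05 and -0.03 in siLSD1.

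Nuf2, a kinetochore gene next to Rgs5 and near Rgs4 on chromosome 1, was lower in siLSD1 at 3.20 ± 0.071 units against 4.85 ± 0.49 in siControl (-0.57, SE 0.11, adjusted p = 0.00392). In siMyT1 it measured 3.62 ± 0.50 units (-0.41, SE 0.11, adjusted p = 0.0336), a call lost without siControl replicate 1 or 2, siMyT1 replicate 1 or 3 or siLSD1 replicate 3 (adjusted p up to 0.111). Both values rest on the same siControl arrays. Uchl5, a deubiquitinase gene next to Rgs2 on chromosome 1, measured 17.6 ± 1.3 units in siMyT1, 14.3 ± 0.56 in siLSD1 and 14.4 ± 0.64 in siControl. It was higher in siMyT1 than in siControl (0.28, SE 0.07, adjusted p = 0.0225), a call lost without siControl or siMyT1 replicate 2 or 3 (adjusted p up to 0.102), and higher than in siLSD1 (0.30, SE 0.07, adjusted p = 0.00749). Both calls were lost after median centring and with all probe sets averaged, and the call against siControl also without a variance trend. Rusf1 and Tial1, next to Rgs10, Mtrf1l, next to Rgs17, Rgs13, next to Rgs2, and Rgs8, next to Rgs16, were not called in any comparison.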
